A study of Mus musculus with 18 samples.

Results

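Adjacent narrow H3K4me3 regions are short stretches of mouse chromatin that sit side by side in the list of places where this mark was compared between T cell acute lymphoblastic leukaemia (T-ALL) and normal thymocytes. They were chosen by list membership, width and spacing: each is autosomal, narrower than 1500 bp, has another listed H3K4me3 region of either colour at a gap of 500 bp or less, and shares no base with the regions listed for H3K27me3 or H3K9ac. This kept 4591 of the 21402 listed H3K4me3 regions, or 21.7% of the 21127 autosomal ones. The H3K9ac list has regions on 11 chromosomes only, which held 2782 of the 4591. On the other autosomes the rule could exclude no region for H3K9ac. Width and gap were used by the rule and colour comes from the same comparison, so their values describe the choice. No test was made, because the lists give no value per library and regions are not replicates of a condition.

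The series compared T-ALL, labelled as tumours that over-express Notch1-IC, with CD4+/8+ double positive (DP) cells of normal thymus, by chromatin immunoprecipitation and sequencing (ChIP-seq). H3K4me3 was profiled in 2 T-ALL libraries and 2 DP libraries, cut to mononucleosomes with micrococcal nuclease, and Notch1 in 1 T-ALL library of sonicated chromatin. Notch1-IC is the intracellular part of the Notch1 receptor and acts without ligand. The sources used here name no promoter for it, and neither the strain nor the age of the animals, nor whether animals were pooled. The region lists carry no level per gene or library, so marker genes of the 2 cell types could not be checked and no spread between replicates can be given. In such bulk samples, fewer cells with a mark and less of the mark per cell cannot be told apart.

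H3K4me3 is written by the SET1 and MLL methyltransferase complexes and marks the nucleosomes that flank active and poised promoters. At such promoters the start site itself is usually left free of a stable nucleosome, so that the mark is commonly found on either side of it. H3K9ac is another mark of active promoters, whereas Polycomb complexes write H3K27me3 at silenced genes. Notch1-IC enters the nucleus and binds DNA through the factor RBPJ. Each listed H3K4me3 region is drawn in green or red, and since the file headers and labels leave unsaid which colour marks a gain in T-ALL, regions are named by colour alone. Positions are mm9 with 1-based starts. Genes, promoters and sequences were not assigned, because the gene and promoter tables at hand are on GRCm38.

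Green regions prevailed among the adjacent narrow regions. There were 2958 green and 1633 red ones, a green share of 64.4% (95% Clopper-Pearson interval 63.0 to 65.8, which covers counting error only). The background was 47.6% green over all autosomal H3K4me3 regions. The 12853 narrow autosomal regions without a neighbour within 500 bp, and without a shared base with the other marks, were 43.5% green (42.6 to 44.4). The green share lay above 50% on each of the 19 autosomes, from 59.3% on chromosome 8 to 74.2% on chromosome 6.

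Green members had the larger median width. It was 725 bp, with quartiles of 575 and 900 bp, and that of red members was 625 bp, with quartiles of 500 and 825 bp. Among narrow regions without a neighbour the medians were 650 bp for green and 600 bp for red. Regions under 500 bp were nearly all red among the members, where 218 of 1633 red ones (13.3%) and 18 of 2958 green ones (0.61%) were that short. Among narrow regions without a neighbour, 9.53% of the red and 9.21% of the green ones were that short. A width of exactly 500 bp was the most frequent in both colours, with 200 red and 316 green members.

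**Figure D1:**
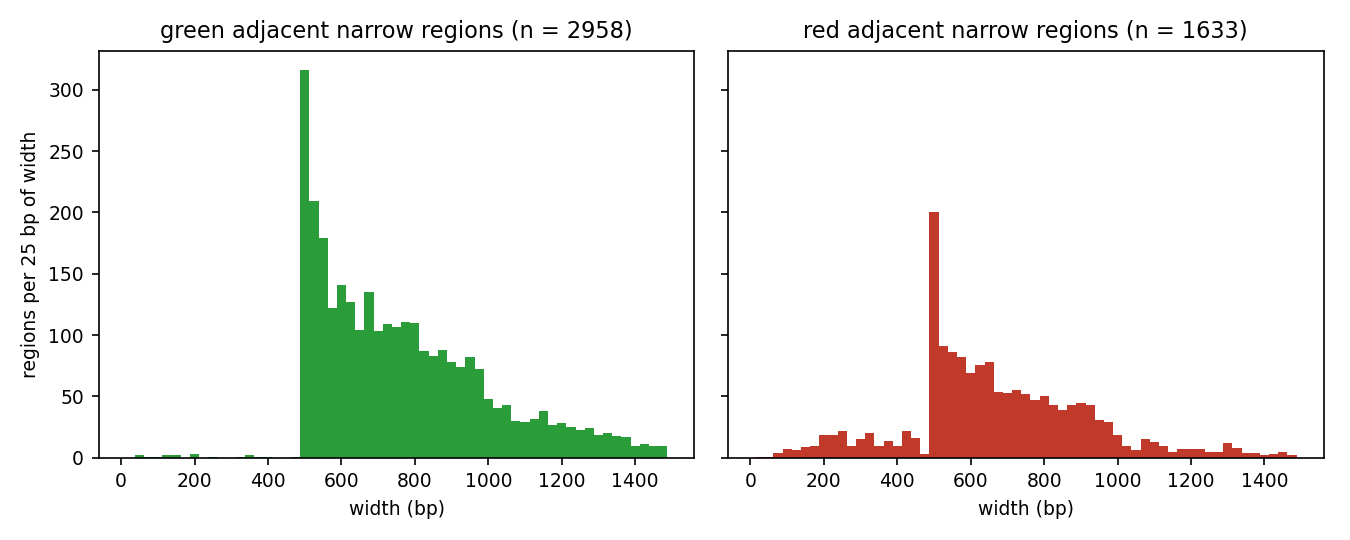
Width of each adjacent narrow H3K4me3 region in bp, counted in steps of 25 bp, for the 2958 green regions on the left and the 1633 red regions on the right. Both colours peak at 500 bp, and nearly all regions below that width are red (218 against 18 green).

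Over 1 in 2 neighbouring pairs joined a green and a red region. A pair is taken as 2 consecutive listed regions at a gap of 500 bp or less, at least 1 of them a member, and 2750 such pairs were found. Opposite colours made up 1528 of them (55.6%, 53.7 to 57.4), against 44.6% over all consecutive autosomal H3K4me3 regions at any gap. Of the same-coloured pairs 973 were green with green and 249 red with red. Read from low to high coordinate, 799 opposite pairs ran red then green and 729 green then red, so that red came first in 52.3% (49.8 to 54.8). The opposite share exceeded 50% on 14 of the 19 autosomes and ran from 42.0% on chromosome 6 to 65.8% on chromosome 5.

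Most red members had a green neighbour. Of red members 77.1% (75.0 to 79.1) had at least 1 green neighbour, and of green members 47.5% (45.7 to 49.3) had at least 1 red one. The same 1259 pairs of a red and a green member enter both shares, over 1633 red but 2958 green members. Colour make-up alone therefore raises the red share above the green one. How much of the contrast it accounts for was not tested. Neighbours of 1500 bp or more were mostly green beside members of either colour. They were green in 60 of 67 cases beside red members (89.6%). Beside green members 134 of 159 were green and 25 were red (15.7%). No green share over all regions of 1500 bp or more is given beside these counts. In 79.3% of the pairs both regions were members. These pairs were of opposite colour in 57.7% of cases, and pairs with a neighbour that was wide or met another mark in 47.4%. The latter share pools unlike neighbours. Narrow neighbours that met another mark were green in 55 of 109 cases beside red members (50.5%). Beside green members they were red in 129 of 233 cases (55.4%).

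Opposite-coloured neighbours had the shorter median gap. It was 150 bp (order-statistic 95% interval 125 to 150), against 200 bp (175 to 200) for pairs of equal colour, where all positions lie on a 25 bp grid. By order the medians were 200 bp for green with green, 150 bp for red with red, 125 bp for green then red and 150 bp for red then green. Of the opposite pairs 199 (13.0%) touched with no base between them, against 60 pairs (4.91%) of equal colour. The centres of the 2 regions were a median of 894 bp apart in opposite pairs and 1000 bp apart in pairs of equal colour. By order this distance was 1037.5 bp for green with green, 875 bp for red with red, 875 bp for green then red and 900 bp for red then green. Pairs of 2 red regions were thus no further apart by centre than opposite ones.

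The opposite share was highest where the 2 regions touched. It was 76.8% (71.2 to 81.8) among the 259 touching pairs, 58.7% at gaps of 25 to 100 bp, 54.9% at 125 to 200 bp and 55.4% at 225 to 300 bp. At 325 to 400 bp it was 45.2% and at 425 to 500 bp it was 43.5% (37.8 to 49.3). Green with green was the most frequent single order in each bin but that of touching pairs, with 230, 228, 162, 170 and 139 pairs from the shortest gaps to the longest. At the limit itself, 27 of 70 consecutive autosomal regions at a gap of 500 bp differed in colour, and 23 of 75 at 525 bp did. For the width limit, 10 of 12 otherwise eligible regions of 1475 bp and 9 of 12 of 1500 bp were green.

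**Figure D2:**
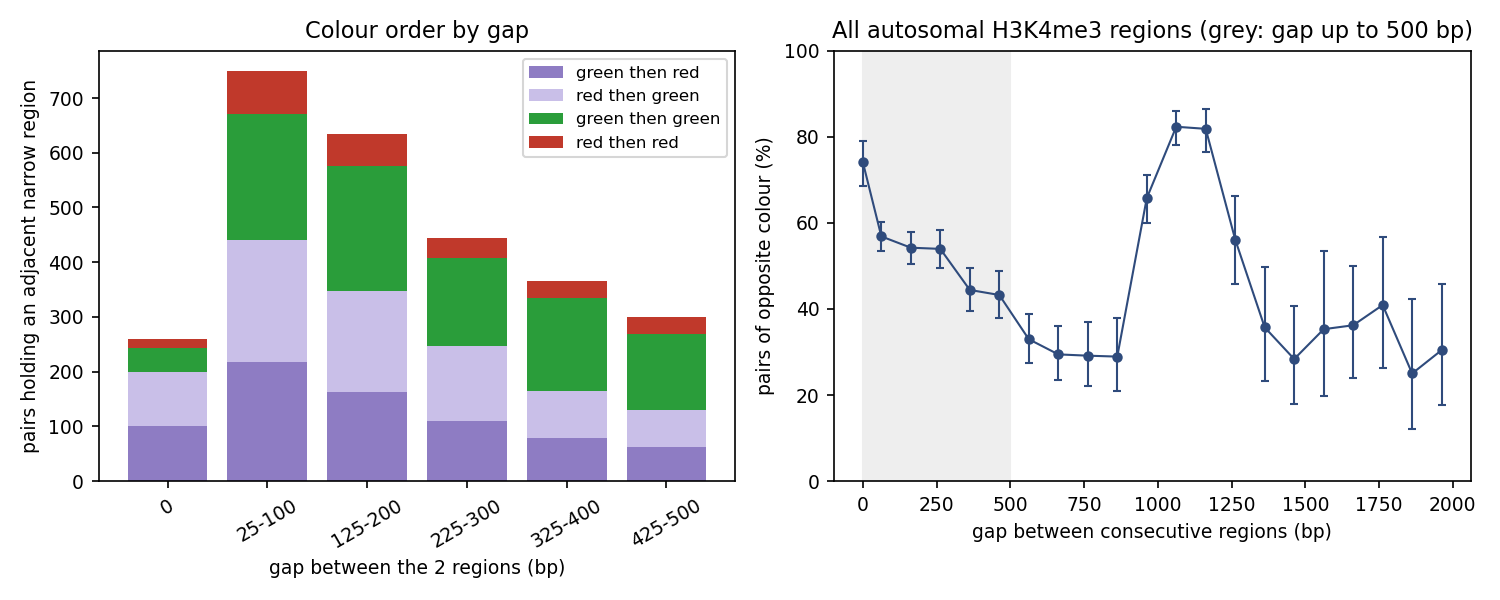
On the left, the number of pairs holding an adjacent narrow region by the gap between the 2 regions in bp, split by colour order from low to high coordinate. On the right, the percentage of opposite-coloured pairs among all consecutive autosomal H3K4me3 regions in steps of 100 bp of gap, with 95% Clopper-Pearson intervals, which is 43.2% at 425 to 500 bp and stands at 82.3% at 1025 to 1100 bp.

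Beyond the limit the share was uneven. Over all consecutive autosomal H3K4me3 regions it was 54.3% at gaps up to 500 bp, 29.7% (26.6 to 32.9) at 525 to 975 bp, 81.9% (79.2 to 84.3) at 1000 to 1250 bp and 34.6% at 1275 to 2000 bp. The share differed between adjacent steps of the 25 bp grid, with 9 of 34 pairs of opposite colour at 975 bp and 164 of 186 at 1000 bp. The shortest regions were prominent in these pairs. An opposite-coloured region at 1000 to 1250 bp accompanied 56.2% of the 1585 autosomal regions under 500 bp, against 2.00% of those of exactly 500 bp and 2.70% of those of 525 to 1475 bp. Of the members under 500 bp, 96 of 236 (40.7%) had one. The caller that cut the lists into regions is not named in the sources at hand, and its part in these spacings was not tested.

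The shortest members were mostly red ones beside green. Of the red members under 500 bp, 181 of 218 (83.0%, 77.4 to 87.8) had a green neighbour within 500 bp. Of the green ones 1 of 18 had a red neighbour. A green neighbour was also present for 76.2% (73.9 to 78.4) of red members of 500 bp or more. Pairs that held a region under 500 bp were opposite in 191 of 247 cases (77.3%), and pairs without one in 1337 of 2503 (53.4%, 51.4 to 55.4). These 2 kinds of pair also differ in colour make-up, as the short members were 218 red and 18 green. Among opposite pairs of 2 members the green region was the wider in 57.8% and the red one in 37.9%. With both at 500 bp or more these shares were 51.4% and 43.6%.

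Linked by gaps of 500 bp or less, the members formed 2372 chains. Most chains, 2005, had 2 regions, 309 had 3, 48 had 4, 8 had 5 and 2 had 6. The longest spanned 10125 bp and the 2-region chains had a median span of 1675 bp. Both colours occurred in 1404 chains (59.2%), green alone in 790 (33.3%) and red alone in 178 (7.50%). Colour changed once along 1252 chains, 2 times along 149 and 3 times along 3.

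In chains of 3 a red region between 2 green ones was the most frequent order. Green-red-green accounted for 121 of the 309 chains (39.2%, 33.7 to 44.8) and the inverse, red-green-red, for 6 (1.94%, 0.72 to 4.18). Red made up 57.6% of middle regions, 19.7% of outer ones and 32.4% of all 927 regions in these chains. Colour make-up alone therefore favours green-red-green over its inverse, and how much of the contrast it accounts for was not tested. Over members with neighbours on both sides, 115 of 178 red ones (64.6%) stood between 2 green regions and 8 of 163 green ones (4.91%) between 2 red regions. Colour make-up bears on these 2 shares as well, since 64.4% of members were green. The green-red-green chains were found on all 19 autosomes. Their median widths were 750, 650 and 725 bp with median gaps of 125 bp on either side, the green inner edges were a median of 1000 bp apart, and the whole chain spanned a median of 2625 bp. The red region was the narrowest of the 3 in 48 of 121. In 84 of the 121 all 3 regions were members, and in the other chains a green or red one was wide or met another mark.

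**Figure D3:**
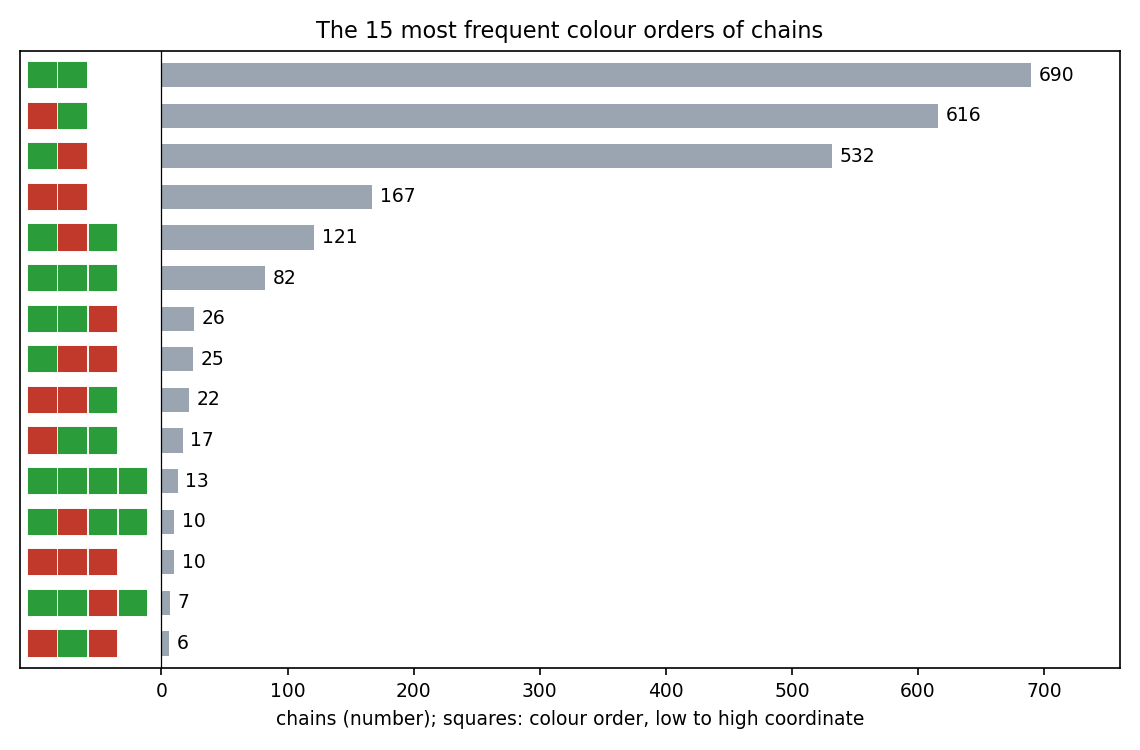
Number of chains for each of the 15 most frequent colour orders, with the order drawn as green and red squares from low to high coordinate at the left of each bar. Orders of 2 regions lead (690 green-green, 616 red-green, 532 green-red and 167 red-red), followed by green-red-green with 121 chains, while red-green-red has 6.

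Of the 8 named chains with the most members, 7 held more green than red regions. A set of 4 chains held 5 members each and 26 held 4, and the 4 chains and the 4 longest of the 26 are named. On chromosome 6 from 125181551 to 125186400 all 5 members were green, 500 to 1200 bp wide, with gaps of 25 to 450 bp. On chromosome 4 from 149074176 to 149078050 all 5 were again green, at gaps of 25 to 300 bp. The chain on chromosome 19 from 4188351 to 4192450 held 4 green members and then a red one of 575 bp that touched the last green one. The longest of the 8, on chromosome 19 from 5796976 to 5802975, held 6 green regions, of which the 2 in the middle met H3K9ac and were therefore not members. A further chain, of 4 green members, lay on chromosome 9 from 65971126 to 65975725 and had no other region in it. On chromosome 19 from 57432126 to 57436975 a red member of 675 bp touched a green member of 775 bp at the end of a chain that otherwise was green.

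Colour changed 3 times in 3 chains. On chromosome 3 from 143864276 to 143868850 the order was green, red, green, green, red over 5 members, with a Notch1 peak on the first red one from 143864826 to 143865325. On chromosome 9 from 61218526 to 61223950 it was red, green, red, red, green, where the fourth region met H3K9ac. On chromosome 5 from 115223051 to 115226225 it was red, green, red, green over 4 members 375 to 875 bp wide, the first 2 touching. Of the 149 chains with 2 changes the longest, on chromosome 7 from 75419076 to 75426800, spanned 7725 bp and placed a red member of 500 bp between a green member of 1350 bp and a green region of 2825 bp. Likewise, a red member of 750 bp on chromosome 15 from 81846226 to 81846975 stood between green regions of 2750 and 1325 bp. The chain on chromosome 16 from 49853901 to 49859225 set a red member of 875 bp among 3 green regions. On chromosome 6 from 86473151 to 86478275 the 1 member, red and 775 bp wide, was flanked by a red and a green region that both met H3K9ac.

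**Figure D4:**
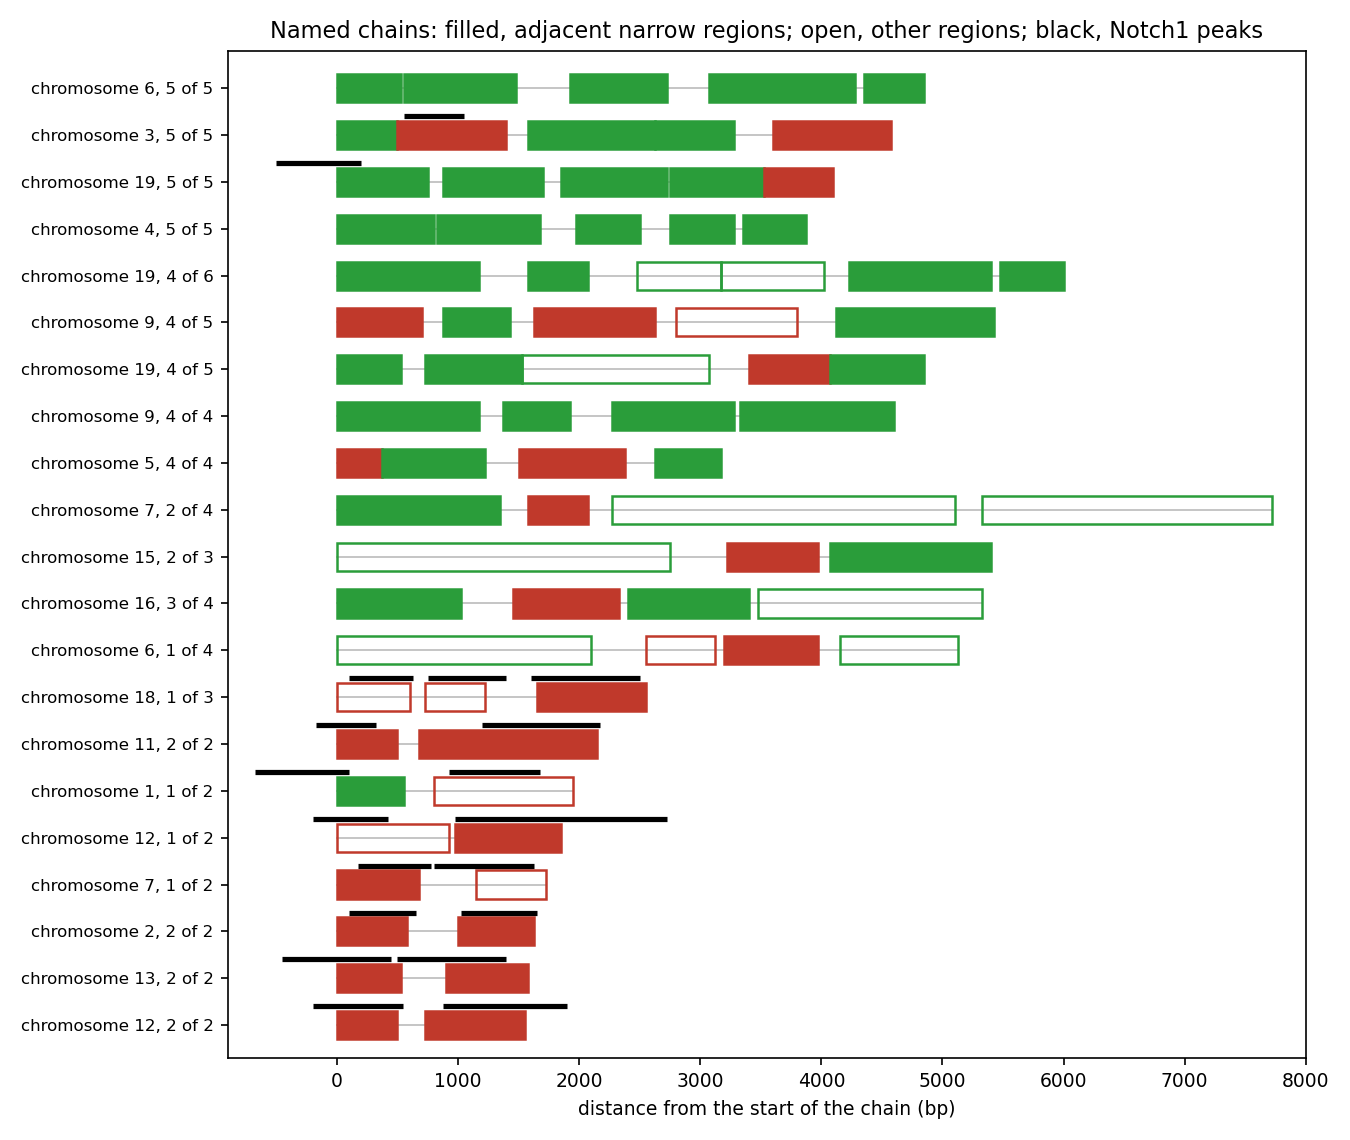
The named chains drawn to scale as distance in bp from the start of each chain, with filled boxes for adjacent narrow regions, open boxes for other listed H3K4me3 regions and black bars for Notch1 peaks that share bases with them. Each is labelled by its chromosome and by how many of its regions are members, and the lower 8, chosen for Notch1 peaks, are red apart from 1 green region.

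Notch1 peaks, which the rule did not use, were sparse in adjacent narrow regions. A peak shared at least 1 base with 145 of the 4591 members (3.16%, 2.67 to 3.71), against a background of 9.56% over all autosomal H3K4me3 regions. Narrow regions without a neighbour held one in 1253 of 12853 cases (9.75%, 9.24 to 10.3). These shares pool both colours, and members were 64.4% green against 43.5% of narrow regions without a neighbour. Among red regions the share was 6.61% in members and 16.8% without a neighbour. Among green ones it was not lower in members, at 1.25% against 0.63%. Members touched 120 of the 14569 listed Notch1 peaks. The peaks come from 1 library and regions of a chain can share a peak, so these shares are given with counting error only and their differences were not tested.

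Red members differed in their Notch1 share by the colour of their neighbours. A peak was present in 41 of 1259 red members with a green neighbour (3.26%, 2.35 to 4.39), against 67 of 374 red members whose neighbours were all red (17.9%, 14.2 to 22.2) and 1218 of 7262 red regions without a neighbour (16.8%, 15.9 to 17.7). Over all red autosomal H3K4me3 regions the background was 17.3%. Similar values were found within bins of width. At 500 to 600 bp the shares were 2.66% with a green neighbour and 20.0% with red neighbours, at 625 to 800 bp 5.39% and 22.1%, and at 825 to 1475 bp 1.81% and 15.4%. Over all red members the share was 6.61% (5.46 to 7.93).

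Few green members met Notch1, whatever the colour of their neighbours. The share was 1.25% (0.88 to 1.72) over all green members, 1.49% with a red neighbour and 1.03% with green neighbours only, where the background over all green autosomal H3K4me3 regions was also 1.03%. Green narrow regions without a neighbour held a peak in 0.63% (0.44 to 0.87).

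**Figure D5:**
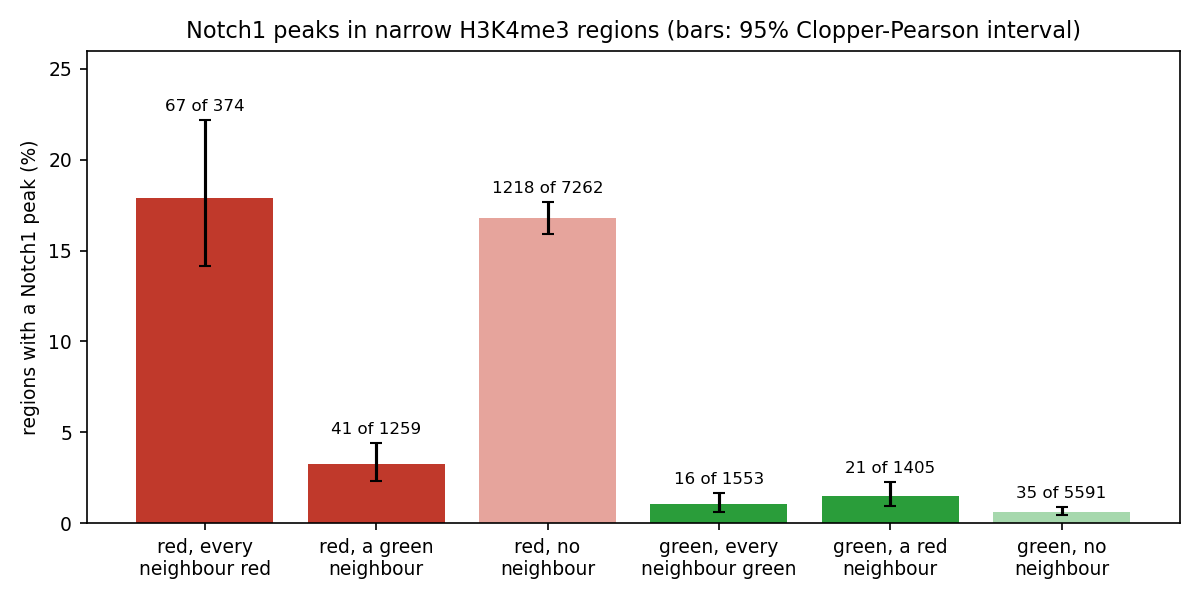
Percentage of narrow H3K4me3 regions that share a base with a Notch1 peak, by colour and by the colour of their neighbours within 500 bp, with 95% Clopper-Pearson intervals and counts above the bars. Red members with a green neighbour stand at 3.26%, below red members with red neighbours at 17.9% and red regions without a neighbour at 16.8%.

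Among pairs, those of 2 red regions had the highest Notch1 share. A peak met at least 1 region of 62 of 249 red-red pairs (24.9%, 19.7 to 30.8), 34 of 799 red-green pairs (4.26%), 26 of 729 green-red pairs (3.57%) and 17 of 973 green-green pairs (1.75%). A red-red pair holds 2 red regions, and 17.3% of all single red autosomal regions met a peak, against 1.03% of green ones. The number of red regions in a pair therefore bears on this ranking by itself. How much of the ranking that number accounts for was not tested, and no background for pairs is given. In 188 of the 249 red-red pairs both regions were members. In the 60 opposite pairs with a peak it lay on the red region alone in 37, on the green one alone in 4 and on both in 19.

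Of the 8 named chains with the most Notch1 peaks, 7 were red throughout. They were picked by their peaks, which met 17.3% of red and 1.03% of green autosomal H3K4me3 regions. The chain with the most, 3 peaks, lay on chromosome 18 from 36017951 to 36020500 and consisted of 3 red regions, of which the last, 900 bp wide, was a member and the others met H3K27me3. Of the 12 chains with 2 peaks, the 7 of longest span are named. In 4 of these both regions were red members, each with a peak. On chromosome 11 (60522126 to 60524275) the members were 500 and 1475 bp wide. On chromosome 2 (34485151 to 34486775) they were 575 and 625 bp wide, and on chromosome 13 (65359976 to 65361550) 525 and 675 bp. The last of the 4, on chromosome 12 (110064126 to 110065675), had members of 500 and 825 bp. A red member paired with a red region that met H3K27me3 on chromosome 12 (113410676 to 113412525) and likewise on chromosome 7 (147267001 to 147268725). The exception in colour lay at 90182101 to 90184050 of chromosome 1, where a green member of 550 bp preceded a red region that met H3K27me3. The widest Notch1 peak on a red member spanned 2475 bp (chromosome 4, 116781676 to 116784150), and that on a green member 1025 bp (chromosome 9, 107472326 to 107473350).

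Regions of the other marks nearby were looked at beyond the overlap that the rule removed. On the 11 chromosomes of the H3K9ac list, 366 of 2782 members (13.2%, 11.9 to 14.5) lay within 1000 bp of an H3K9ac region, against 420 of 7793 narrow regions without a neighbour (5.39%, 4.90 to 5.91). For 298 of the 366 the member's own neighbour shared bases with that mark, which narrow regions without a neighbour cannot have. The other 68 made up 2.44% (1.90 to 3.09) of the 2782 members. This share leaves the 298 out of the count but keeps them in the 2782. It therefore cannot be compared with the 5.39%, from which nothing was left out. Green H3K9ac regions lay within this distance of 6.33% of members and red ones of 6.90%. For narrow regions without a neighbour these shares were 2.69% and 2.76%. H3K9ac regions of either colour lay within 1000 bp of 14.0% of green members and 8.69% of green regions without a neighbour. For red the 2 shares were 11.5% and 2.76%. Members whose own neighbour shares bases with H3K9ac are counted in all these shares. H3K27me3 regions lay within 1000 bp of 99 members (2.16%, 1.76 to 2.62), against 3.14% (2.85 to 3.46) of narrow regions without a neighbour. By colour, the shares were 1.66% of green members against 1.61% of green regions without a neighbour, and 3.06% (2.28 to 4.02) of red members against 4.32% (3.87 to 4.82) of red ones. Within 5000 bp they were 5.07% against 4.56% for green and 7.10% against 12.2% for red.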

How the data were processed

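ChIP-seq libraries of 2 T-ALL and 2 DP samples for H3K4me3 and of 1 T-ALL sample for Notch1 stand behind the lists used, beside the H3K27me3 and H3K9ac lists. The submitters' processing notes name BWA and the builds NCBIM37 and mm9. No source used here names the region caller, its thresholds or how inputs and replicates entered, and depth is unknown. The score in the lists deposited by the authors is 1000 throughout and was not used. Colour comes from the display field, per the file headers a comparison of NIC with DP.

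Regions were sorted, gaps counted as bases between consecutive regions, and overlap as 1 shared base. Shares carry 95% Clopper-Pearson intervals and medians order-statistic intervals. The functions were checked on simulated lists with planted members. Python 3.11.15, numpy 2.4.6, pandas 2.3.3 and scipy 1.17.1 were used. Members and comparisons were chosen with earlier results of these data known. Regions named are the 8 chains with the most members, colour changes or Notch1 peaks, ties by span, and the widest Notch1 peak per colour. Genes and sequence were left out for want of a matching build, and the 71 sex-chromosome regions by the rule.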

Additional observations from a re-analysis of the deposited data

How the results depend on the processing

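Each of 11 results was recomputed under 10 settings, and the 3 on Notch1 under 3 more. Those on chains and on pairs with Notch1 were added after seeing the data. Of 119 recomputed values 90 stayed within their interval, or within 1.5 times for a count. The green share and the opposite-colour share stayed above 50% in each setting run, and the median gap of opposite pairs stayed below that of pairs of equal colour. Width by colour, red before green and distance to the other marks were not recomputed. The opposite-colour share was 59.8% with gaps up to 250 bp, 51.7% with gaps up to 1000 bp, 53.4% with regions of at least 500 bp, 53.6% on the chromosomes of the H3K9ac list and 57.7% with neighbours that are members only. The green share was 61.9%, 65.9% and 66.5% in the first 3 of these settings, 62.3% for regions narrower than 1000 bp and also 62.3% with regions sharing bases with other marks kept. With gaps up to 250 and 1000 bp, the median gap was 100 and 200 bp in opposite pairs and 125 and 325 bp in pairs of equal colour, since the limit bounds it. The share of members with a Notch1 peak was 4.04% with regions sharing bases with other marks kept, 2.66% on the H3K9ac chromosomes, 1.92% with 50% of the region covered, 4.79% with a peak within 500 bp and 1.44% with peaks at or above their median width. In red-red pairs the last setting gave 14.9%, and in opposite pairs 1.18%, where 50% coverage gave 2.29%. Green-red-green chains numbered 70 and 183 with gaps up to 250 and 1000 bp, and red-green-red ones 2 with gaps up to 250 bp. The H3K9ac chromosomes, being fewer, held 2782 members, 1491 chains, 76 green-red-green and 3 red-green-red ones. No paired analysis was possible because no value of a single library is in the region lists, which also kept any replicate from being left out.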

Other observations

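Neighbouring regions of the other 2 marks, taken over all autosomal regions of each list, were also compared in colour. At gaps up to 500 bp the opposite share was 54.3% (52.5 to 56.1) for H3K4me3, 37.9% (36.6 to 39.2) for H3K27me3 and 14.3% (8.83 to 21.4) for H3K9ac, the last from 133 pairs. At gaps of 10025 bp or more it was 43.2% for H3K4me3, 38.8% for H3K27me3 and 43.9% for H3K9ac. These differences were not tested. The step at 1000 bp appeared in H3K27me3 too, where 41.6% of pairs were opposite at 525 to 975 bp and 63.4% (61.3 to 65.5) at 1000 to 1250 bp. In H3K9ac 7 of 22 pairs at that distance were opposite, too few to place. Among H3K4me3 regions under 500 bp, an opposite-coloured region at 1000 to 1250 bp accompanied 483 of 548 green ones (88.1%) and 408 of 1037 red ones (39.3%), while one at 0 to 500 bp accompanied 2 green and 202 red ones. The difference between the colours was not tested.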
